A study of Mus musculus with 14 samples.

Results

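The genes described here encode membrane transporters for glucose, amino acids and lactate, measured in myeloid cells that had entered brain metastases (BrM) and in myeloid cells of the spleen and bone marrow. They were chosen by symbol as all genes of the Slc1, Slc2, Slc7, Slc16 and Slc38 families in the probe annotation except Slc7a2. This gave 54 of 19057 genes, namely 7 of Slc1, 11 of Slc2, 13 of Slc7, 13 of Slc16 and 10 of Slc38. Where a gene had several probes, the one with the highest mean over the 14 arrays stood for each gene.

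GFP+CD11b+ cells were sorted from C57Bl/6J mice aged 14 weeks whose bone marrow had been replaced with GFP-tagged marrow, so that any GFP+ blood lineage carrying CD11b could enter the gate. The 6 conditions were PyMT BrM (4 arrays), EO771 BrM (2), spleen and bone marrow of mice with PyMT BrM (3 and 1), and spleen and bone marrow of naïve mice without tumors (2 and 2). Both cancer lines, PyMT and EO771, come from mouse breast tumors and had grown in the brain for 2 weeks after implantation. Spleen and bone marrow of EO771-bearing mice were not analysed here, so the cancer line, whether control mice carried tumors, and the set of mice cannot be told apart. Codes in the labels leave it unstated whether naïve bone marrow 1 and 2 came from separate mice and whether EO771 BrM 2 was a pool. Code stems recur between PyMT BrM, spleen and bone marrow arrays, and whether a shared stem means a shared mouse is also unstated. The main fits took the arrays as unpaired. The p-values therefore measure the spread between arrays, which may in part be technical.

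Glucose enters cells down its gradient through the facilitative carriers of the Slc2 family. Slc1 carriers move glutamate and small neutral amino acids with sodium, Slc38 carriers move glutamine and related amino acids with sodium, and most light chains of the Slc7 family exchange amino acids once paired with a heavy chain such as Slc3a2. The Slc16 family holds the monocarboxylate carriers, of which Slc16a1 and Slc16a3 move lactate and others move thyroid hormone, ketone bodies or aromatic amino acids. Activated macrophages and neutrophils are known for high glucose use, and macrophages also take up glutamine, arginine and cystine.

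The values are log2 signals, quantile normalized by the authors, with a median of 4.06 over all probes and arrays. Of the 54 members, 44 lay above this median in 2 or more arrays, 22 in all 14, 2 in a single array and 8 in none, so that a difference between dim members rests on signal near the background. A gene was called at an adjusted p under 0.01 from limma, the false discovery rate of the study, with adjustment over all 45281 probes. The array labelled PyMT spleen 2 stood apart from the other spleens. Across 13848 probes above the median in every array, it correlated at 0.967 to 0.976 with the 3 bone marrow arrays and at 0.87 to 0.892 with the other 4 spleens, whereas those spleens correlated with bone marrow at 0.871 to 0.92. Its mean log2 signal over 4 B cell markers was 5.55, against 7.98 to 8.37 in the other spleens and 5.44 to 6.23 in bone marrow, and over 9 macrophage markers 8.70, against 10.23 to 11.22 and 8.57 to 9.30. It was kept under its label, and the results that rest on it are given with and without it.

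The sorted populations also differed in cell type markers. All 9 measured neutrophil markers were lower in BrM (mean level 6.40 to 9.75 in BrM, 12.13 to 13.37 in spleen and 13.22 to 13.29 in bone marrow). Of 4 B cell markers 2 were lower (Cd79b and Blk, mean level of the 4 at 3.67 to 4.72 in BrM and 5.44 to 8.37 elsewhere), and of 5 T cell markers 1 was lower (Cd3d, mean level of the 5 at 3.46 to 5.06 in BrM and 4.19 to 6.06 elsewhere). Of 5 erythroid markers 4 were lower, of 9 macrophage markers 5 were higher, of 5 microglia markers 2 were higher, and of 6 carcinoma markers 2 were higher (Krt8 and Cdh1, with Epcam and Krt19 below the median in all arrays). Of 8 astrocyte and neuron markers 0 were called by limma. The part of these shifts in the differences of the transporters was not tested, and in sorted bulk cells, fewer cells of a type and less RNA per cell cannot be told apart.

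In BrM, the glucose carriers split, with Slc2a1 higher and Slc2a3 lower than in the spleen and bone marrow, while the amino acid carriers Slc7a7, Slc7a8 and Slc38a7 were higher and the monocarboxylate carrier Slc16a9 was lower. These 6 were the members called when 6 BrM arrays were set against 8 spleen and bone marrow arrays. The 4 higher members made up 7.41% of the 54, against 4.89% of all genes, and the 2 lower members 3.70%, against 4.13% of all genes, and neither share stood far from that of all genes. The median difference was 0.02 over the members and -0.01 over all genes. At an unadjusted p under 0.05, 9 members were higher and 5 lower. The share of all genes at that threshold is not given, so unadjusted counts here and below cannot be set beside it. By family, 1 of 11 Slc2 members was higher and 1 lower, 2 of 13 Slc7 members were higher, 1 of 13 Slc16 members was lower, 1 of 10 Slc38 members was higher and 0 of 7 Slc1 members were called, of which 2 were higher and 1 lower at the unadjusted threshold.

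**Figure D1:**
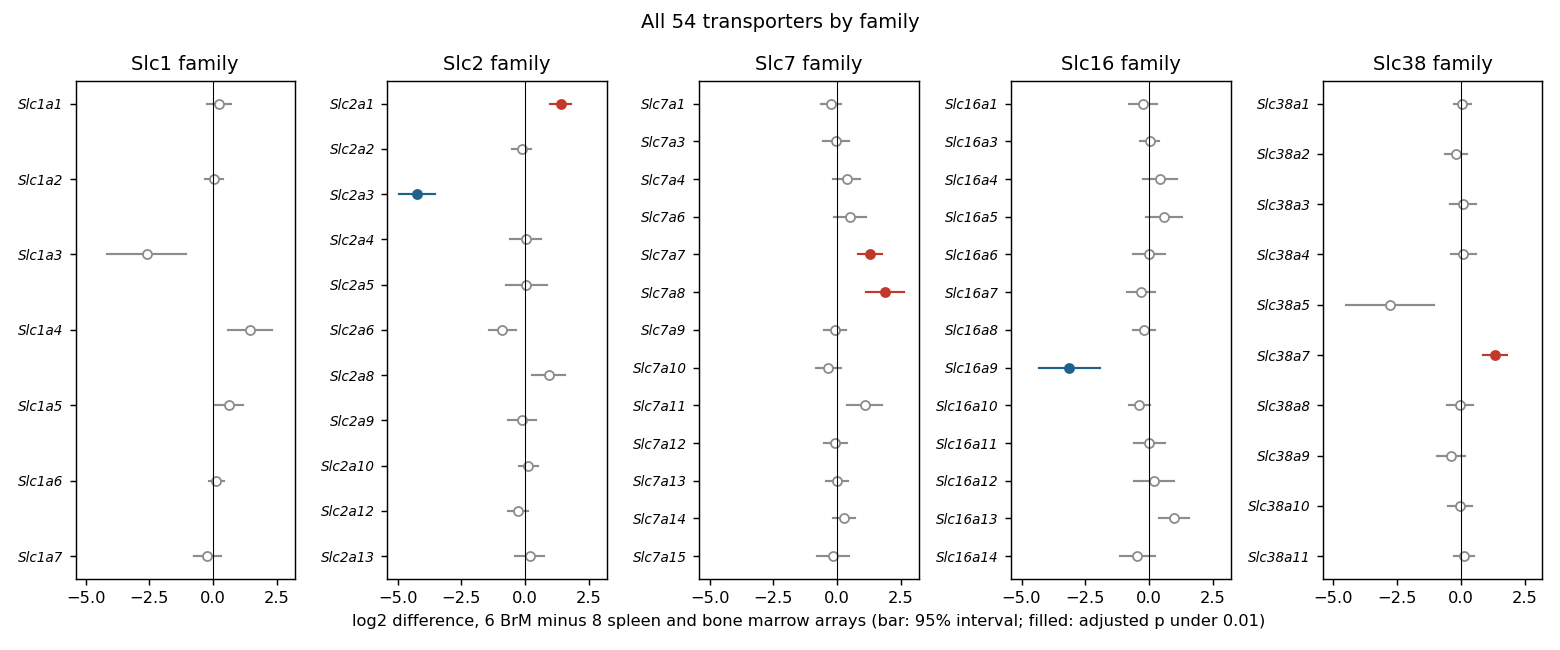
Log2 difference (x axis) of each of the 54 transporters, 6 BrM arrays minus 8 spleen and bone marrow arrays, in a panel per family. Points are limma estimates, bars 95% intervals, and filled points the 4 members called higher (red) and 2 called lower (blue), with Slc2a3 farthest from 0 at -4.25.

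For the members called higher, the RefSeq promoter windows from 250 bases before to 50 bases after the annotated start (GRCm38.p6) are shown where they hold a core hypoxia response motif or an amino acid response motif, since hypoxia and amino acid shortage are known to act on carrier genes. Capitals mark ACGTG, the core bound by HIF factors, and TGATGNAA, the element bound by ATF4, on either strand. For Slc7a7 the first of 5 annotated windows was taken.
Slc2a1, chr4:119108495-119108794, plus strand: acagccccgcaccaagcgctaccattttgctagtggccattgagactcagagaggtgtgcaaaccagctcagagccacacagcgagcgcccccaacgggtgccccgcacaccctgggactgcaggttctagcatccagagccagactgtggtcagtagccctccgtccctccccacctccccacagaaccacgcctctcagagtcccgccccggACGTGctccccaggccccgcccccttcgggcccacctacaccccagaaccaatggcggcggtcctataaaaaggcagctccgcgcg
Slc7a7, chr14:54417895-54418194, minus strand: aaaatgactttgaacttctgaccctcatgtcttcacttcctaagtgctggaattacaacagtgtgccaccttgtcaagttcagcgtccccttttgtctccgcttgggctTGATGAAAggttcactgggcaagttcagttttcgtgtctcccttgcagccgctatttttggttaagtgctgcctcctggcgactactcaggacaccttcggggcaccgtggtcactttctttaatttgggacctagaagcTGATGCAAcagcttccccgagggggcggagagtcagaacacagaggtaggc
Slc38a7, chr8:95853442-95853741, minus strand: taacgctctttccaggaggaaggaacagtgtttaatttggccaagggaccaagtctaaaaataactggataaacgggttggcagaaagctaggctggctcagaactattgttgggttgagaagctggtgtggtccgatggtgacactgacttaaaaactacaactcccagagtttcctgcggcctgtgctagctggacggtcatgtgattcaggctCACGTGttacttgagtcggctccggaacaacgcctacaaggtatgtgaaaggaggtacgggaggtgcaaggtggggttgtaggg
ACGTG was found once in the Slc2a1 window. In the Slc38a7 window it was read on both strands of a single CACGTG, the E-box motif. That match does not tell a HIF core from an E-box. The Slc7a7 window held 2 matches to TGATGNAA, and the windows of Slc7a8 and Slc16a9 held neither motif. Among 41 members with a window, 14 (34.1%) held ACGTG, against 19.7% of 27025 gene windows of the same length. Members not called held it in 12 of 36 windows (33.3%) and members called higher in 2 of 4, so it is not particular to the higher members. TGATGNAA was in 3 members (7.32%), against 4.06%, with 2 of 36 members not called (5.56%) and 1 of 4 called higher. CACGTG, which contains ACGTG, was in 7 members (17.1%, against 7.24%), the antioxidant motif TGACNNNGC in 5 (12.2%, against 12.5%), and GAGGAA, the core bound by the myeloid factor PU.1, in 8 (19.5%, against 28.3%), while its longer form GAGGAAGT was in 0 of 41 (3.28% of all). A match describes letters in the window and not a site in use, and Slc2a3 and the other 12 members without a window were not searched.

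Slc2a1 encodes GLUT1, the carrier for basal glucose uptake. Its log2 signal was 11.04, 10.24, 10.31 and 10.80 in the PyMT BrM arrays 1 to 4 and 11.47 and 10.65 in the EO771 BrM arrays. In the spleen it was 9.38, 9.16 and 9.35 in PyMT-bearing and 9.18 and 9.70 in naïve mice, and in the bone marrow 9.18 in the PyMT-bearing and 9.51 and 9.34 in naïve mice. The lowest BrM array lay above the highest of the others, while spleen and bone marrow covered the same range. The difference was 1.40 (SE 0.20, 95% CI = 0.98 to 1.82, 2.64-fold, adjusted p = 1.54e-04 from limma).

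Slc2a3 encodes GLUT3, a carrier of high affinity that neutrophils are known to use. Its log2 signal was 6.95, 7.30, 7.48 and 7.08 in PyMT BrM and 7.48 and 6.83 in EO771 BrM. Spleens had 10.95, 12.40 and 10.31 in PyMT-bearing mice, the second being the array labelled PyMT spleen 2, and 10.83 and 10.61 in naïve mice. Bone marrow had 11.91 in the PyMT-bearing and 12.27 and 12.19 in naïve mice. The BrM arrays were thus all below the others, and the 4 spleens other than the array labelled PyMT spleen 2 were below bone marrow. Slc2a3 fell by 4.25 on the log2 scale (SE 0.33, 95% CI = -4.95 to -3.54, 19.0-fold, adjusted p = 4.11e-07 from limma). Neutrophil markers moved with it between tissues. Within BrM their mean level was 6.40, 7.97, 9.75 and 8.64 in the PyMT arrays and 6.54 and 6.47 in the EO771 arrays, and Slc2a3 was 7.48 both in PyMT BrM 3 and in EO771 BrM 1.

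Over all genes, 4.25% had all 6 BrM arrays above the other 8 and 3.73% had all 6 below. Of the 54 transporters, 3 (Slc2a1, Slc7a7 and Slc38a7) were above and 2 (Slc2a3 and Slc16a9) below in this way.

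**Figure D2:**
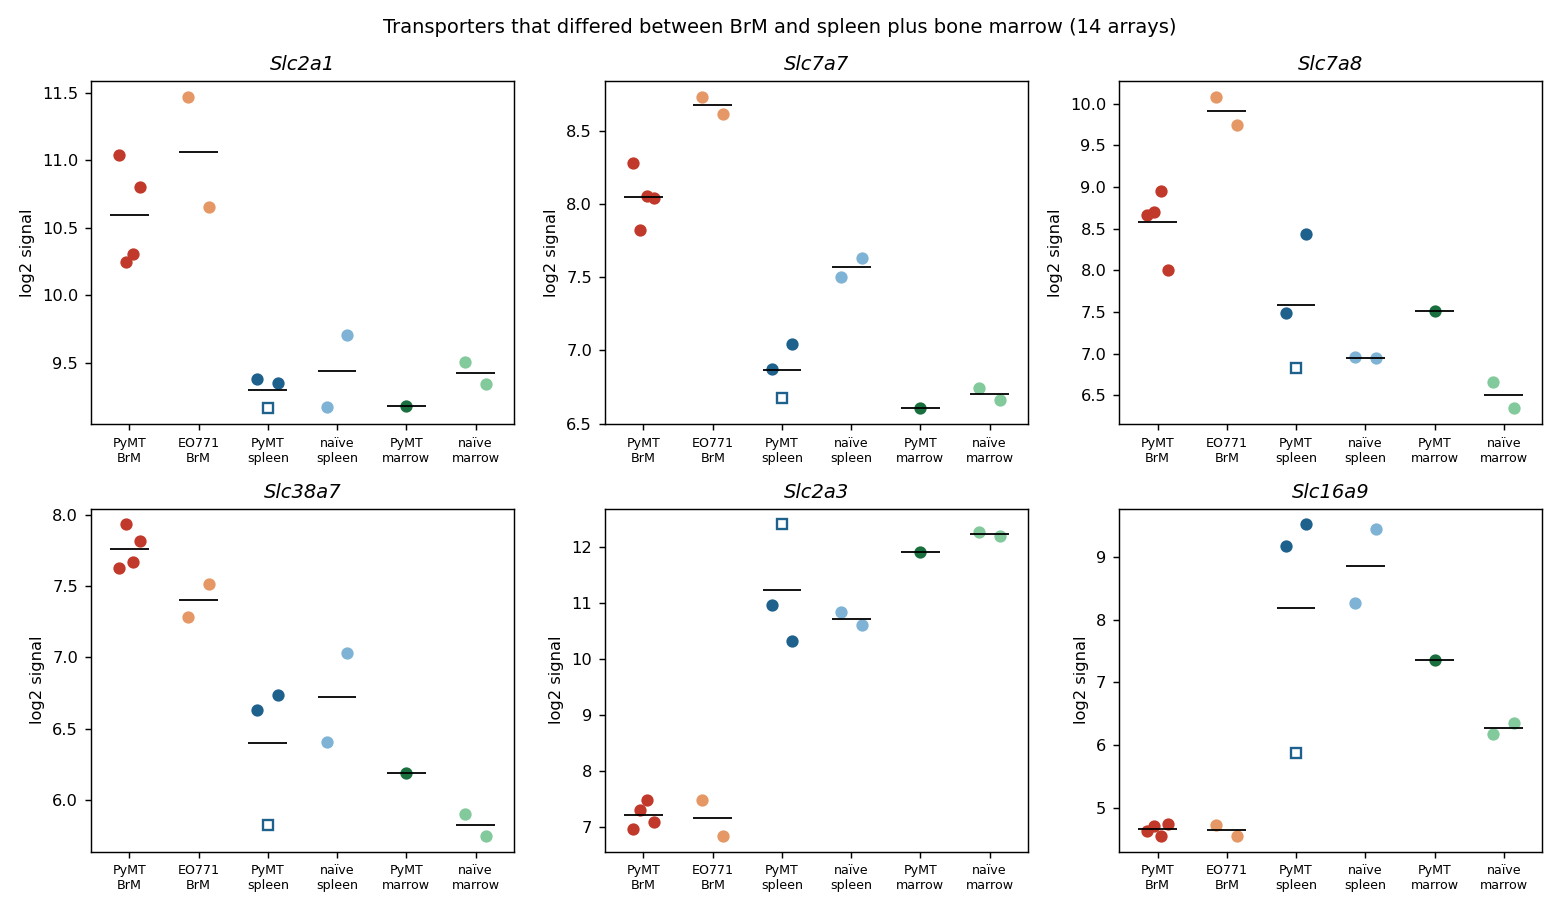
Log2 signal (y axis) of the 6 called transporters in each array of the 6 conditions (x axis). Points are arrays, lines condition means, and the open square is the array labelled PyMT spleen 2. Slc2a3 was 6.83 to 7.48 in BrM and 10.31 to 12.40 elsewhere.

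The other 9 Slc2 members were not called. The 2 with the largest differences among them were chosen after their values were seen. Slc2a6, which encodes the lysosomal carrier GLUT6, had -0.89 (SE 0.26, adjusted p = 0.0318 from limma), and Slc2a8, which encodes the intracellular carrier GLUT8, had 0.93 (SE 0.31, adjusted p = 0.0584). The PyMT BrM arrays gave 6.22 to 6.86 for Slc2a8 and the EO771 BrM arrays 5.52 and 5.59. The array labelled PyMT spleen 2 had 4.32. The other spleens had 5.72 to 6.06, above both EO771 BrM arrays. Centring on reference genes, which moved the median of all probes by -0.19, kept all 6 calls and added Slc2a6 at -1.08 (adjusted p = 0.00408).

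Slc7a7 and Slc7a8 encode the light chains y+LAT1, which exchanges cationic for neutral amino acids, and LAT2, which carries large and small neutral amino acids. Slc7a7 had log2 signals of 8.28, 7.82, 8.06 and 8.04 in PyMT BrM and 8.74 and 8.62 in EO771 BrM. Outside the brain it was lowest in bone marrow (6.60 in the PyMT-bearing and 6.74 and 6.66 in naïve mice), with 6.87, 6.68 and 7.04 in PyMT spleens and 7.51 and 7.63 in naïve spleens. The groups did not overlap, although the gap between the highest naïve spleen and the lowest BrM array was small. Slc7a7 rose by 1.29 (SE 0.22, 2.45-fold, adjusted p = 6.92e-04 from limma), and its other 2 probes gave 1.41 (adjusted p = 0.00114) and 0.94 (adjusted p = 0.00833).

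Slc7a8 had 8.67, 8.70, 8.95 and 8.01 in PyMT BrM and 10.09 and 9.75 in EO771 BrM. In PyMT-bearing mice the spleens had 7.49, 6.82 and 8.43 and the bone marrow 7.51, and in naïve mice the spleens had 6.96 and 6.94 and the bone marrow 6.66 and 6.34. EO771 BrM was therefore above every other array, whereas PyMT BrM 4 lay below PyMT spleen 3. Over all arrays Slc7a8 rose by 1.88 (SE 0.35, 3.68-fold, adjusted p = 0.00162 from limma). Its difference was 1.02 among PyMT arrays alone, which was not called (adjusted p = 0.121), and 3.19 between EO771 BrM and naïve arrays (adjusted p = 0.00167). The difference between the models, tested as such against the spleens, was -1.97 (SE 0.57, adjusted p = 0.211) and was not called. The second Slc7a8 probe gave 1.37 (adjusted p = 0.0300).

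Slc7a11 encodes xCT, the cystine and glutamate exchanger that feeds glutathione synthesis. It had 6.36, 7.42, 7.33 and 7.86 in PyMT BrM and 9.08 and 7.70 in EO771 BrM, against 6.03 to 7.16 in spleen and 6.59 to 6.86 in bone marrow. All BrM arrays but PyMT BrM 1 were above the others, and the difference of 1.09 (SE 0.33, adjusted p = 0.0373 from limma) was not called. Its other, dimmer probes gave 1.06, 1.25, 0.42 and 0.44, none of them called. Against spleen alone the Slc7a11 difference was 1.44 (adjusted p = 0.0114), which was called without PyMT BrM 1 (1.59, adjusted p = 0.00440). Without EO771 BrM 2 it was 1.79. It was also called with a filter on dim probes (adjusted p = 0.00606), a trended, robust variance model (0.00389) or the mean of its probes (1.33, 0.00232). Centring on reference genes and the block by replicate number did not call it. Slc7a5, which encodes LAT1, had no probe of that symbol here and was not analysed. The remaining 10 Slc7 members had differences between -0.34 and 0.50.

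The heavy chain Slc3a2, with which Slc7a7, Slc7a8 and Slc7a11 pair at the membrane, had a mean of 4.71 (SD 0.88) in BrM and 3.68 (SD 0.47) elsewhere, a difference of 1.03 (SE 0.34, adjusted p = 0.0566 from limma). Basigin (Bsg) and embigin (Emb), partners of the lactate carriers, had differences of -0.08 (SE 0.19) and 0.15 (SE 0.28), with adjusted p = 0.877 and 0.831. None of the 3 measured partners was called, and none passed an unadjusted p under 0.05 except Slc3a2. By array, Slc3a2 was 6.00 and 5.37 in EO771 BrM, but 3.49 to 4.61 in PyMT BrM, which overlapped 3.05 to 4.30 elsewhere. Outside EO771 BrM these values lay around or below the median of 4.06, and Bsg was 3.85 to 4.79 over all arrays. Both thus rest largely on signal near the background.

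Slc38a7 encodes SNAT7, which is known as a lysosomal exporter of glutamine. It had 7.62, 7.93, 7.66 and 7.81 in PyMT BrM and 7.28 and 7.52 in EO771 BrM. Spleens had 6.63, 5.82 and 6.73 in PyMT-bearing and 6.41 and 7.03 in naïve mice, and bone marrow 6.19 in the PyMT-bearing and 5.90 and 5.75 in naïve mice. No BrM array reached down to the others, and the array labelled PyMT spleen 2 lay within the range of bone marrow. The difference was 1.33 (SE 0.22, 2.52-fold, adjusted p = 5.93e-04 from limma).

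Slc38a2, which encodes the stress-responsive glutamine carrier SNAT2, was 10.63 to 11.43 in BrM, 11.02 to 11.96 in spleen and 11.00 to 11.06 in bone marrow. Its difference of -0.20 (95% CI = -0.62 to 0.22, adjusted p = 0.635 from limma) left room for a change of either sign. Slc38a5, which encodes SNAT5, a glutamine carrier known from erythroid precursors, spread more than any other member. It had 4.47, 5.17, 4.55 and 5.39 in PyMT BrM and 2.88 and 4.12 in EO771 BrM. PyMT spleens had 5.10, 7.28 and 10.25, naïve spleens 5.44 and 4.20, the PyMT bone marrow 9.09 and naïve bone marrow 8.14 and 8.20. The bone marrow arrays were above all BrM arrays, but the spleens ranged from BrM levels to above bone marrow. Erythroid markers had mean levels of 5.98, 9.20 and 10.70 in PyMT spleens 1 to 3, 9.74 to 10.30 in bone marrow, 7.68 and 7.79 in naïve spleens and 4.74 to 5.83 in BrM. In the naïve spleens the erythroid level was thus above that of PyMT spleen 1 and of BrM, while Slc38a5 was near its BrM level. Their part in the Slc38a5 difference was not tested.

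**Figure D3:**
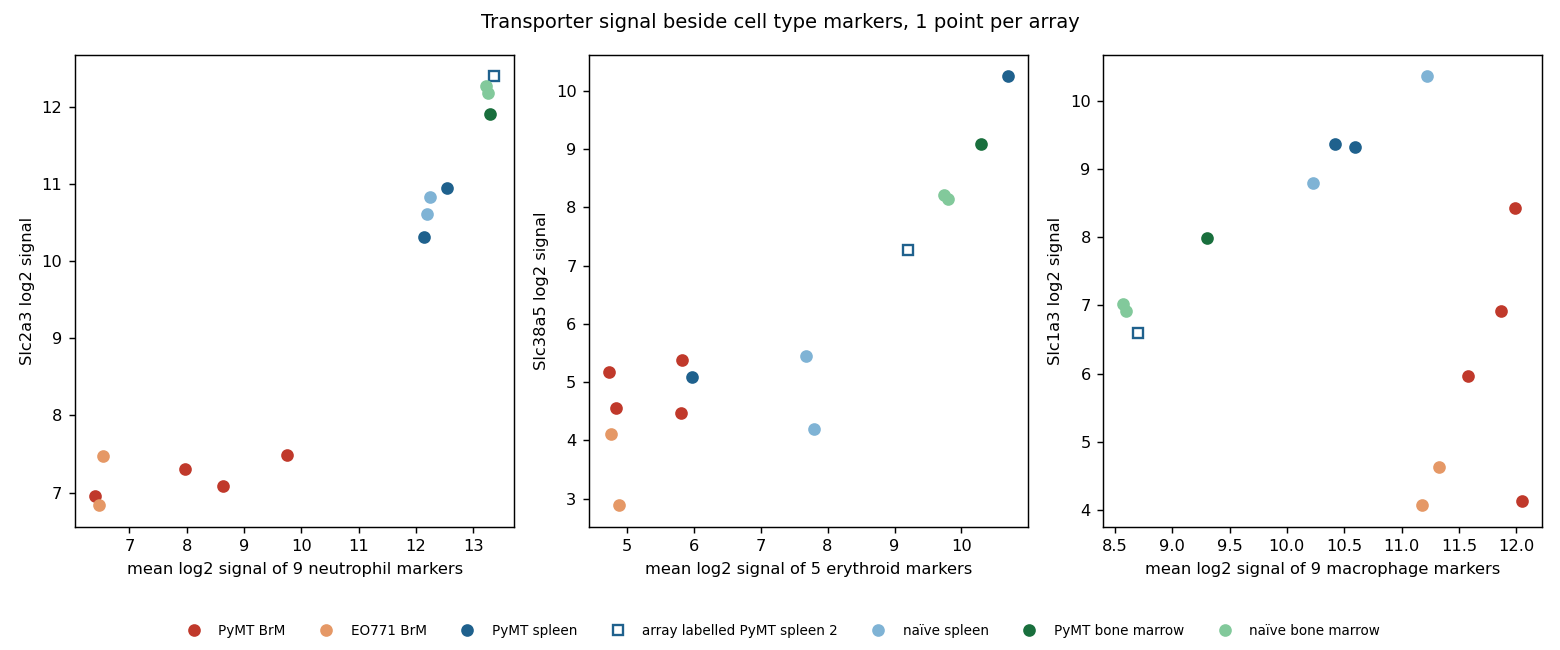
Log2 signal of Slc2a3, Slc38a5 and Slc1a3 (y axes) beside the mean log2 signal of neutrophil, erythroid and macrophage markers (x axes), with 1 point per array and the open square for the array labelled PyMT spleen 2. Slc38a5 was highest, at 10.25, in PyMT spleen 3, the array with the highest erythroid level, 10.70.

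Slc38a1, which encodes the glutamine carrier SNAT1, had 4 probes that disagreed. The brightest, with means of 4.74 in BrM and 4.69 elsewhere, differed by 0.05 (SE 0.16, adjusted p = 0.901 from limma). The next, whose mean over the 14 arrays was 4.70 and so only slightly lower, had 5.38 to 5.97 in BrM and 2.69 to 4.80 elsewhere, a difference of 1.83 (SE 0.29, adjusted p = 3.64e-04). A further probe had 4.41 to 5.32 in BrM and 3.69 to 4.27 elsewhere, a difference of 0.85 (SE 0.17, adjusted p = 0.00290), and the dimmest differed by 0.27 (adjusted p = 0.769). On the mean of its probes Slc38a1 was called higher (0.75, adjusted p = 0.00673).

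Of the 30 members with several probes, 2 had an uncalled brightest probe beside a called one, Slc38a1 and Slc38a9, the latter chosen after its values were seen. Slc38a9 encodes a lysosomal arginine sensor. Its brightest probe differed by -0.39 (adjusted p = 0.443 from limma), and another of its 4 probes, with 5.51 to 6.08 in BrM and 4.10 to 5.55 elsewhere, by 1.07 (adjusted p = 0.00369). In 15 of the 30 members the brightest probe and another had opposite signs, so the direction of those 15 turns on the probe taken. For any member that was not called, the sign of the difference is an estimate only.

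**Figure D4:**
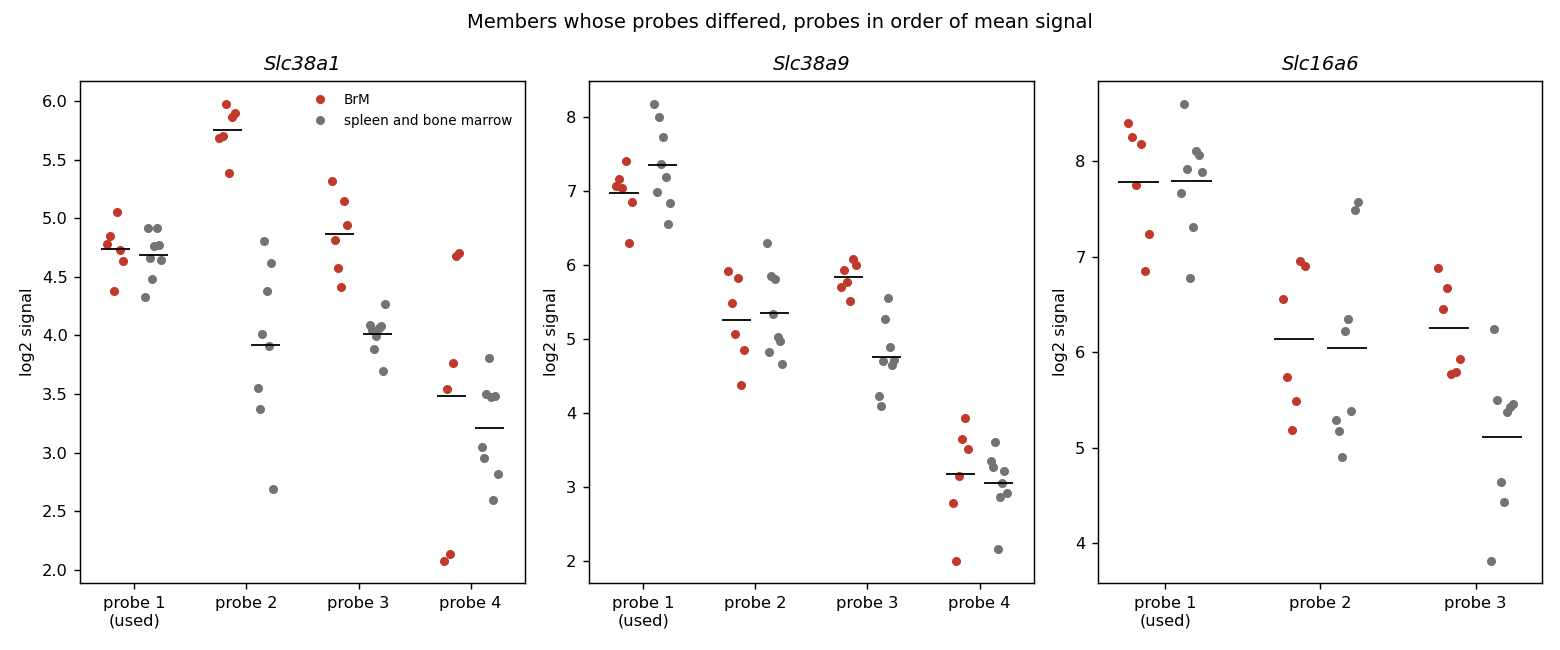
Log2 signal (y axis) of every probe of Slc38a1, Slc38a9 and Slc16a6 in BrM (red) and in spleen and bone marrow (grey), with 1 point per array and lines for means. The second Slc38a1 probe separates the groups (5.38 to 5.97 against 2.69 to 4.80), while the probe used does not.

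Slc1a3 encodes the glutamate carrier GLAST. It had 4.13, 6.93, 5.97 and 8.43 in PyMT BrM and 4.07 and 4.62 in EO771 BrM. The spleens had 9.32, 6.60 and 9.37 in PyMT-bearing and 8.80 and 10.37 in naïve mice, and bone marrow 7.99 in the PyMT-bearing and 7.02 and 6.92 in naïve mice. The groups overlapped, as PyMT BrM 2 and 4 were above the array labelled PyMT spleen 2 and PyMT BrM 4 above all bone marrow. Against both tissues Slc1a3 differed by -2.61 (SE 0.73, adjusted p = 0.0258 from limma), which was not called. The 4 other spleens were all above every BrM array.

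Slc1a5, which encodes the glutamine carrier ASCT2, had 5.40, 5.12, 5.46 and 4.49 in PyMT BrM, 3.96 and 4.49 in EO771 BrM, and 3.58 to 4.60 elsewhere. Its difference of 0.62 (SE 0.26, adjusted p = 0.146 from limma) was not called, with the EO771 arrays inside the range of the controls. Slc1a2, which encodes GLT-1, the main glutamate carrier of astrocytes, was near the median of the array in every condition (4.13 to 4.54 in BrM and 3.90 to 4.72 elsewhere) and differed by 0.02 (95% CI = -0.34 to 0.38).

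Slc16a9 encodes MCT9, a monocarboxylate carrier known to transport carnitine. Its signal was 4.62, 4.71, 4.54 and 4.74 in PyMT BrM and 4.73 and 4.55 in EO771 BrM, close to the median of the array. PyMT spleens had 9.18, 5.88 and 9.52, the second again the array labelled PyMT spleen 2, and naïve spleens 8.27 and 9.45. Bone marrow had 7.35 in the PyMT-bearing and 6.17 and 6.36 in naïve mice. All BrM arrays were below the others, and 4 of 5 spleens were above all bone marrow. Slc16a9 fell by 3.12 (SE 0.56, 8.71-fold, adjusted p = 0.00121 from limma), and its second, dimmer probe had -1.30 (adjusted p = 0.0270).

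Of the lactate carriers, Slc16a1, which encodes MCT1, stayed below the median of the array in all 14 arrays (2.45 to 3.84). Slc16a3, which encodes MCT4, the exporter of glycolytic cells, was 4.37 to 5.17 in BrM and 4.37 to 5.01 elsewhere. It differed by 0.03 (95% CI = -0.33 to 0.40, adjusted p = 0.948 from limma). These values are not far above the median of 4.06, and its other probes were dimmer. The small difference thus rests on signal near the background and does not show that Slc16a3 was unchanged. Slc16a6, which encodes the ketone body carrier MCT7, had 8.40, 8.26, 7.75 and 8.18 in PyMT BrM but 6.85 and 7.24 in EO771 BrM, and 7.67, 8.60 and 7.92 in PyMT spleens but 6.78 and 7.31 in naïve spleens. The arrays of PyMT-bearing mice thus lay above their EO771 or naïve counterparts without overlap, with differences of 1.10 (SE 0.31, adjusted p = 0.0562) in BrM and 1.02 (SE 0.32, adjusted p = 0.114) in spleen, neither of them called. Its second probe ran the opposite way, also without overlap, with 6.95 and 6.90 in EO771 BrM against 5.18 to 6.56 in PyMT BrM, and 6.22 and 6.35 in naïve spleens against 4.91 to 5.29 in PyMT spleens. In bone marrow that probe had 7.49 and 7.57 in naïve mice and 5.38 in the PyMT-bearing mouse, and among the 6 conditions it was called (adjusted p = 0.00315 from limma), so the direction for Slc16a6 is not settled. On its brightest probe, against both tissues together, Slc16a6 differed by -0.01 (SE 0.30), and its dimmest probe by 1.14 (adjusted p = 0.0321).

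The 6 conditions were then compared as such, to see which members varied among them. Limma's F-test called 7 members (13.0%, against 12.2% of all genes), and 25 at an unadjusted p under 0.05. The calls were the 6 above and Slc16a13 (adjusted p = 0.00292), a monocarboxylate carrier named after its values were seen. Of the families, Slc2, Slc7 and Slc16 had 2 called members each, Slc38 had 1 and Slc1 had 0. Of the 7 Slc1 members, 5 passed the unadjusted threshold. That count is not read as a trait of the family, as no share of all genes stands beside it. The 7 calls fell to 3 without EO771 BrM 1 or without naïve bone marrow 1. They fell to 4 without PyMT BrM 4 or without naïve bone marrow 2. Without the array labelled PyMT spleen 2 there were 10. The share of all genes called by the F-test with an array left out is not given, so these counts cannot be set beside it.

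**Figure D5:**
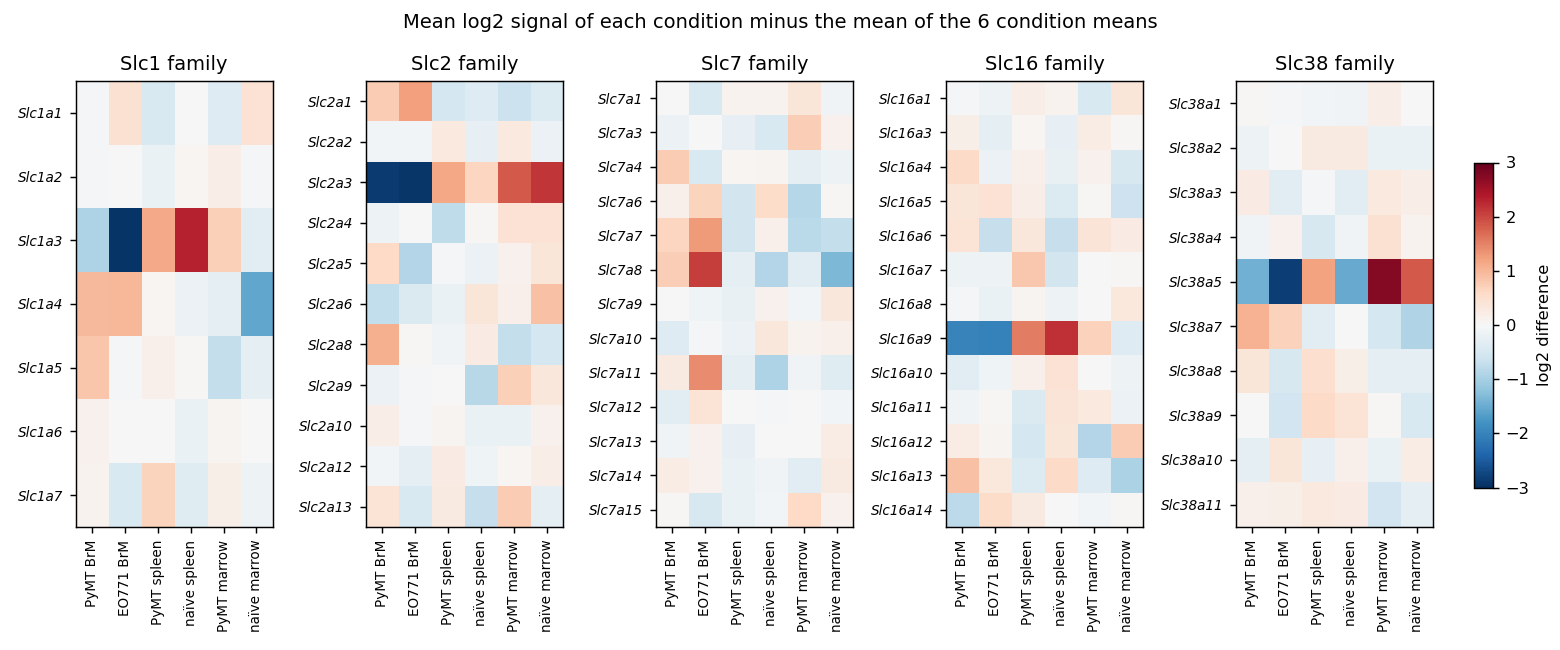
Mean log2 signal of each condition (columns) for every transporter (rows, in a panel per family), shown as the difference from the mean of the 6 condition means. Red is higher and blue lower, with the colour saturated beyond 3. Slc2a1 and Slc2a3 have opposite colours in the BrM columns.

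With each model given equal weight, BrM was set against spleen and against bone marrow in turn. Against spleen, 4 members were higher (4.61% of all genes were) and 3 lower (3.89% of all genes). Among the called members, the largest rises were of Slc7a8 by 1.98 (adjusted p = 7.11e-04 from limma), Slc2a1 by 1.46 (adjusted p = 0.00107) and Slc7a7 by 1.15 (adjusted p = 5.03e-04), and Slc38a7 followed at 1.02 (adjusted p = 0.00706). Slc16a9 fell by 3.88 (adjusted p = 7.08e-04), Slc2a3 fell by 3.79 (adjusted p = 2.17e-05) and Slc1a3 fell by 3.65 (SE 0.75, adjusted p = 0.00655). Without the array labelled PyMT spleen 2, 6.55% of all genes were higher and 6.38% lower, and all 7 remained called, with Slc1a3 at -4.11 (adjusted p = 0.00211), and Slc38a9 was added at -0.95 (adjusted p = 0.00351). The Slc1a3 call was kept without PyMT BrM 1, PyMT BrM 4, PyMT bone marrow 1 or the array labelled PyMT spleen 2 and lost without any 1 of the other 10 arrays (adjusted p up to 0.0416). It was also lost with values under the median raised to it (adjusted p = 0.0256), a trended, robust variance model (0.0131) or naïve bone marrow arrays averaged (0.0113). The Slc38a7 call was kept without PyMT bone marrow 1 or any 1 of the PyMT spleens. It was lost without any 1 of the other 10 arrays. Centring on reference genes (0.741, adjusted p = 0.0469), a block for the replicate number in the titles (the replicate block, 0.0330) or averaged naïve bone marrow arrays also ended it. Without a naïve bone marrow array, or with these averaged, the differences stayed at -3.65 for Slc1a3 and 1.02 for Slc38a7. No bone marrow array enters them, and these losses came with the spread shared by all conditions.

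Against bone marrow, 5 members were higher (5.46% of all genes were) and 2 lower (5.19% of all genes). Slc7a8 rose by 2.24 (adjusted p = 9.73e-04 from limma), Slc7a7 by 1.71 (adjusted p = 1.21e-04), Slc38a7 by 1.58 (adjusted p = 0.00134), Slc2a1 by 1.53 (adjusted p = 0.00235) and Slc16a13 by 1.27 (adjusted p = 0.00271). Slc2a3 fell by 4.89 (SE 0.39, 29.6-fold, adjusted p = 1.77e-05) and Slc38a5 fell by 4.43 (SE 0.87, adjusted p = 0.00481). The BrM values of Slc38a5 lay around the median of the array, so its size rests on signal near the background, and the call was lost with values under the median raised to it (-4.14, adjusted p = 0.0223). The Slc38a5 call was lost without any 1 of the 3 bone marrow or the 2 EO771 BrM arrays (adjusted p up to 0.0221), that of Slc2a1 without EO771 BrM 1 or naïve bone marrow 2 (up to 0.0119), with the replicate block (0.0103) or with naïve bone marrow arrays averaged (0.0105), and that of Slc16a13 without EO771 BrM 2 or naïve bone marrow 1 (up to 0.0156), with values raised to the median (0.0124), the replicate block (0.0123) or the mean of its probes (0.0106). Averaging the naïve bone marrow arrays also ended the Slc38a5 call (0.0180), and the block that of Slc38a7 (0.0135). Slc16a9 had -2.16 (SE 0.67, adjusted p = 0.0496), which was called without the array labelled PyMT spleen 2 (adjusted p = 1.70e-04), as was Slc2a8 at 1.19 (adjusted p = 0.00108). No spleen array enters these differences, which were the same with and without that array. What changed was the spread shared by the 6 conditions, with the SE of Slc16a9 at 0.25 without it. Without that array 8.38% of all genes were higher and 7.59% lower. Both comparisons share the BrM arrays.

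Between spleen and bone marrow, limma called 0 members in either direction (6 higher and 5 lower at an unadjusted p under 0.05), as it called 0.00525% of all genes higher and 0% lower. Without the array labelled PyMT spleen 2 these became 2 members higher and 2 lower, and 4.61% and 3.78% of all genes. Slc16a9 was then 2.30 higher in spleen (adjusted p = 4.32e-04) and Slc2a8 0.97 higher (adjusted p = 0.00864), whereas Slc2a3 had -1.39 (adjusted p = 0.00377) and Slc2a9, which encodes the urate carrier GLUT9, -1.05 (adjusted p = 0.00687). Slc2a8 and Slc2a9 were named after their values were seen. Which members separated spleen from bone marrow thus turned on 1 array.

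Between PyMT BrM and EO771 BrM, limma called 0 members (8 higher and 5 lower at an unadjusted p under 0.05), while 0.819% of all genes were higher in PyMT and 1.12% lower. Between PyMT-bearing and naïve spleens it called 0 members (6 higher and 3 lower unadjusted), with 0.0105% and 0.0682% of all genes. The difference between the models, that is PyMT BrM minus PyMT spleen set against EO771 BrM minus naïve spleen, was called for 0 members (3 and 5 unadjusted, smallest adjusted p = 0.143), with 0.0105% and 0.0315% of all genes. Without the array labelled PyMT spleen 2 all 3 still called 0 members, while the shares of all genes became 2.31% and 2.32% between the BrM models, 0.0157% and 0.268% between the spleens, and 0.0262% and 0.0367% for the difference between the models. The number of arrays limits the precision of these 3 comparisons, and a member that was not called is not shown to be alike in both models.

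Other genes of the same pathways were taken from lists and set beside the transporters in the comparison of BrM with both tissues, in which 4.89% of all genes were higher and 4.13% lower. Of 14 measured members of other amino acid transporter families, 2 were higher and 1 lower. Slc36a1, a lysosomal proton-coupled amino acid carrier, rose by 2.38 (SE 0.23, adjusted p = 4.14e-06 from limma), Slc15a3, a lysosomal histidine and peptide carrier, by 1.40 (adjusted p = 0.00111), and Slc43a1, the neutral amino acid carrier LAT3, fell by 1.87 (adjusted p = 0.00182). Of 9 genes of sugar, lactate and pyruvate handling, Slc37a2, a sugar phosphate exchanger of macrophages, rose by 2.37 (adjusted p = 1.01e-05) and its relative Slc37a1 fell by 1.43 (adjusted p = 1.76e-04), while lactate dehydrogenase Ldha had 0.36 (SE 0.23, adjusted p = 0.410).

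Among 17 genes of the ATF4 amino acid response, 5 were higher and 1 lower. Atf3, a stress-induced factor, rose by 2.88 (SE 0.61, adjusted p = 0.00431 from limma), Nupr1 by 2.33 (adjusted p = 1.72e-05), the serine synthesis enzyme Psat1 by 1.34 (adjusted p = 2.50e-04), Cebpg by 1.04 (adjusted p = 0.00110) and Cebpb by 0.92 (adjusted p = 0.00983), whereas Chac1, which degrades glutathione, fell by 2.56 (adjusted p = 3.09e-04). The mean level of the 17 genes was 8.06 and 8.02 in EO771 BrM, but 7.17 to 7.51 in PyMT BrM, 7.16 to 7.56 in spleen and 7.17 to 7.39 in bone marrow. Of 9 glutathione and NRF2 genes 1 was higher, Srxn1 by 2.06 (adjusted p = 2.77e-04). Of 14 genes of amino acid sensing by mTORC1, 2 were higher, the subunit Rptor by 1.03 (adjusted p = 0.00693) and the arginine sensor Castor1 by 1.13 (adjusted p = 0.00624). None of 6 glutamine and glutamate enzymes was called. The median differences of these lists were 0.33, 0.23, 0.16, -0.24, 0.08 and 0.09 in the order other amino acid transporters, sugar and lactate handling, ATF4, glutathione, mTORC1 and glutamine, beside -0.01 over all genes.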

How the data were processed

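GFP+CD11b+ cells had been profiled on 14 Illumina mouse arrays. Per the labels, the authors used GenomeStudio 2011.1 and limma, and the deposited log2 signals had been corrected for background and quantile normalized. Probes were named through the platform annotation (34885 of 45281 with 1 symbol). Fits used R 4.3.3 and limma 3.58.1 (lmFit and eBayes, two-sided, Benjamini-Hochberg over all 45281 probes, calls at an adjusted p under 0.01). The comparison with both tissues was a fit of 2 groups, all others a fit of 6 conditions, in which the single PyMT bone marrow array was assumed to vary like the rest. SE and 95% intervals are limma's. The script was tested on simulated data. Members and lists were chosen with earlier results of these data known. Named genes were all members called against both tissues, up to 3 per direction in the other comparisons, the brightest of each family, 12 listed transporters and 4 partners. Alternatives were other scalings, variance models, probes, controls, thresholds, blocks and leaving out each array.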

Additional observations from a re-analysis of the deposited data

How the results depend on the processing

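The 6 calls against spleen and bone marrow together were kept with any single array left out. The counts were 4 to 5 higher and 2 to 3 lower, and the methods' t-test, adjusted alike, gave 4 and 2. At an adjusted p under 0.05 they were 7 and 5. Counts at 0.05 and in the other alternatives of this section are given without the share of all genes. They describe only how the calls of the members moved. With spleen as the only control there were 2 higher, Slc7a7 (1.11, adjusted p = 0.0121 from limma) and Slc7a8 (1.70, adjusted p = 0.0162) being lost. PyMT arrays alone gave 1 lower, with Slc7a8 and Slc16a9 (-3.33, adjusted p = 0.0161) lost and Slc16a13 added (1.29, adjusted p = 0.00524). EO771 BrM with naïve arrays gave 1 higher and 1 lower, Slc7a8 and Slc2a3. Lost there were Slc2a1 (1.63, adjusted p = 0.0303), Slc7a7 (1.54, 0.0572), Slc16a9 (-2.92, 0.143) and Slc38a7 (1.13, 0.173). Only Slc2a3 was called in both sets, although the lost members kept their sign. Among the 6 conditions, 3 to 10 members were called with an array left out, 3 with the naïve bone marrow arrays averaged, 3 with a replicate block and 14 at 0.05. Against bone marrow, there were 4 to 6 higher and 1 to 3 lower with an array left out, 8 and 4 at 0.05, and 1 lower with values raised to the median or with the naïve bone marrow arrays averaged. Leaving out arrays gave 3 to 4 higher and 2 to 4 lower against spleen, and 0 to 2 in either direction between spleen and bone marrow. Between PyMT and EO771 BrM, 1 member was called at 0.05, and 1 with a filter on dim probes or a trended, robust variance model (Slc7a4, 1.21, adjusted p = 0.00884 and 0.00968). Between PyMT-bearing and naïve spleens 1 was called at 0.05.

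PyMT BrM and PyMT spleen arrays with the same code stem or title number, the pairs checked, had correlations of deviations of -0.0616 to -0.0034. With 3 spleens, the array labelled PyMT spleen 2 among them, these cannot show whether arrays came from the same mouse. The main fits did not pair them. The replicate block went by title number and was not a pairing by code stem. PyMT BrM 4 and PyMT spleen 3, for example, share a stem but not a number. The block also joined arrays of separate conditions that bear the same number. With the code stem as a random block, no call against both tissues, spleen or bone marrow was lost. With the replicate block, counts were 4 and 3 against both tissues, with Slc1a3 added, 3 and 3 against spleen, and 2 and 2 against bone marrow, where Slc2a1, Slc38a7 and Slc16a13 were lost.

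Among named members that were not called, signs turned for 5. Slc16a6 gave 0.406 on the mean of its probes, 0.014 with averaged naïve bone marrow, 0.125 against spleen only, 0.072 among PyMT arrays and -0.156 to 0.174 with an array left out. Slc38a2 gave 0.095 against bone marrow only. Slc1a2 gave -0.171 when centred on reference genes, -0.044 on the mean of its probes, -0.02 with equal weight for conditions, -0.07 against bone marrow only and -0.044 to 0.073 with an array left out. Slc16a3 gave -0.161 when centred, -0.061 with the replicate block, -0.066 with equal weight, -0.073 against bone marrow only, -0.169 among EO771 and naïve arrays and -0.042 to 0.118 with an array left out. Slc38a1 gave -0.139 when centred, -0.003 with the replicate block, -0.038 against bone marrow only and -0.011 to 0.124 with an array left out. The cause was not tested. Members below the median of the array rest on signal near the background.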

Other observations

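In the mouse annotation (GRCm38.p6), Slc7a7 and Slc7a8 lie on chromosome 14 with a run of other genes between them, an observation made after their values were seen. Of 17 protein-coding genes from Slc7a7 to Slc7a8, 16 had a probe here. Of the 14 measured genes between the pair 1 was higher in BrM and 1 lower. Over all genes 4.89% were higher and 4.13% lower, and counts this small cannot be set apart from those shares. The higher gene was Mmp14, which encodes a membrane-bound metalloproteinase and lies close to Slc7a7, with a mean log2 signal of 12.28 in BrM and 6.11 elsewhere (difference 6.17, SE 0.41, adjusted p = 8.95e-08 from limma). The lower gene was Cebpe, a transcription factor of granulocyte maturation and the measured neighbour of Slc7a8, with 6.40 in BrM and 11.51 elsewhere (difference -5.11, SE 0.59, adjusted p = 2.37e-05). The other 12 measured genes between them, among them Lrp10 at 0.33 (adjusted p = 0.263) and Psmb5 at 0.17 (adjusted p = 0.660), were not called. Whether the position of these genes bears on their levels was not tested.

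Within BrM, the EO771 arrays had the higher signal of Slc7a7 and Slc7a8 without overlap with PyMT BrM, at means of 8.68 against 8.05 and 9.92 against 8.58, neither of them called (limma adjusted p = 0.116 and 0.0694). The mean neutrophil marker level was 6.54 and 6.47 in EO771 BrM and 6.40 to 9.75 in PyMT BrM, so these ranges overlapped. Macrophage markers were at 11.18 and 11.32 in EO771 BrM and 11.58 to 12.05 in PyMT BrM. Carcinoma markers were at 4.62 and 4.34 in EO771 BrM and 5.03 to 5.82 in PyMT BrM. Whether any of these levels bears on Slc7a7 or Slc7a8 was not tested.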
